A study of Rattus norvegicus with 18 samples.

Results

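The m6A sites described here are those at which a peak was called in every one of the 9 deposited peak lists of H9c2 cells. Members were chosen by presence alone: peaks with 1 base or more in common were joined into sites across the lists, and a site was taken when each list held a peak in it. The rule gave 917 of 9022 sites (10.2%), in 742 of the 4846 genes with any site. Since the values that chose them are the peak calls themselves, the number of lists and the height of the scores are given below as a description and without a test.

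N6-methyladenosine (m6A) is a methyl mark on internal adenosines of mRNA. A writer complex around METTL3 and METTL14 places it, the erasers FTO and ALKBH5 remove it, and reader proteins such as those with a YTH domain bind it and affect the splicing, export, translation and decay of the marked RNA. The mark lies mostly in long internal exons and near stop codons, so many transcripts carry more than 1 site. In MeRIP-seq, RNA is broken into fragments, fragments bound by an antibody against m6A are sequenced (IP), and peaks are regions where the IP exceeds the input made from the same RNA without capture.

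H9c2 is a wild type line derived from embryonic rat heart and is labelled as cardiomyocyte, although such cells divide in culture and do not beat. The Control group was untreated, the Model group received 50 µM phenylephrine (PE), which stimulates α1-adrenergic receptors and enlarges heart muscle cells, and the SYD-H group received 50 µM PE together with Shen-Yuan-Dan capsule (SYD), each for 24 h. The sample labels give 2 mg/mL of SYD and the text of the series gives 1 mg/mL. Each group had 3 replicates with an IP and an input library, 18 samples in all, which led to 9 lists of peaks on mRNA with 2508 to 5556 peaks each. The labels do not say whether replicates came from separate cultures, so p-values measure only the spread between these samples. Of 13 cardiac muscle markers, 4 had a site in any list (Tnnt2, Gata4, Nkx2-5 and Mef2c) and 1, the troponin gene Tnnt2, had sites in all 9. Of 10 fibroblast markers, 3 had a site (Col3a1, Pdgfrb and Fn1) and 0 were in all lists, and of 8 skeletal muscle, 5 endothelial, 4 blood and 3 neural markers 0 had a site. Myh4, a skeletal muscle myosin gene that was not among these markers, had 16 sites, 3 of them in all lists. The lists hold no RNA abundance and no read numbers. A marker without a site can therefore still be transcribed, the depth behind a peak is unknown, and more m6A on an RNA and another efficiency of the capture cannot be told apart. Positions are 1-based on rn6.

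Sites of all 9 lists outnumbered those of 4 to 8 lists. The number of sites fell from 3005 in a single list to 413 in 7 lists and then increased to 535 in 8 and 917 in 9 lists. The median score of a peak, which is the negative log10 p multiplied by 10, was 27.99 for sites of a single list, 69.1 for sites of 8 lists and 146 for sites of all 9 lists. As the score decides whether a peak is called, this relation is part of the rule.

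**Figure D1:**
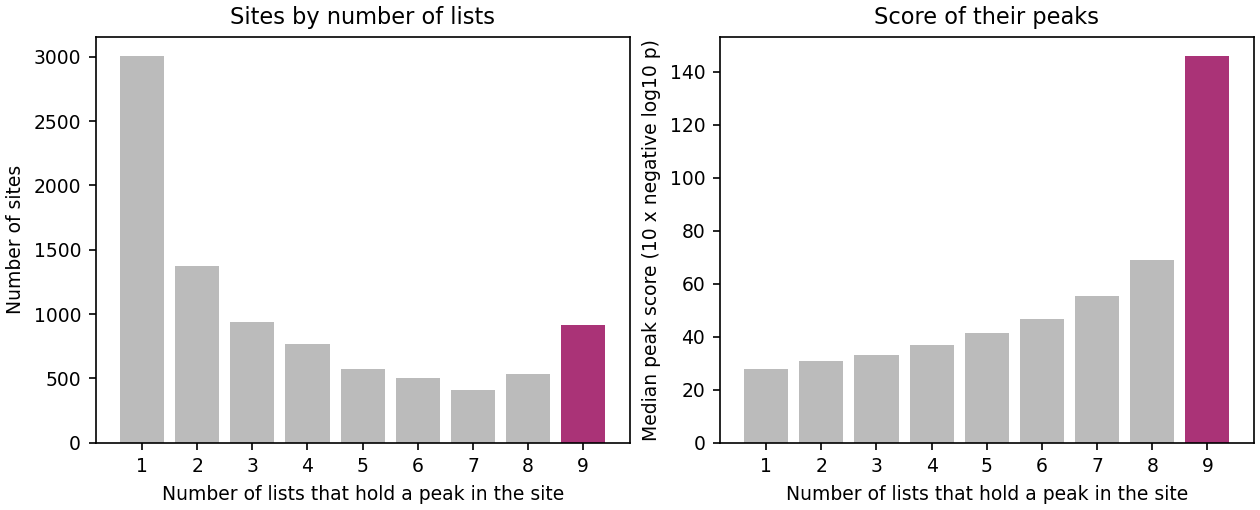
Left, number of merged sites (y axis) by the number of lists that hold a peak in them (x axis). Right, median score of their peaks (y axis, 10 times the negative log10 p). The 917 sites of all 9 lists, in purple, stand above those of 4 to 8 lists in number and have a median peak score of 146 against 69.1 for sites of 8 lists.

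The genes with the strongest sites were Plec, which encodes the cytoskeletal linker plectin, Snrnp70, a protein of the U1 snRNP, the nonmuscle myosin gene Myh9 and its near copy Myh9l1, LOC257642, annotated as rRNA promoter binding protein, and the unnamed loci AABR07063424.1 and AABR07000398.1. They make up the 10 sites with the highest lowest score over the 9 lists. At 9 of these 10 sites the score was at least 3100 in every list, a value that many peaks share, so their order among themselves is not defined. The remaining site, in Myh9 (chr7:118754196-118754402), had 3100 in 8 lists and 2511 in SYD-H replicate 3. The sites of Myh9 and Myh9l1 have equal lengths, 249 and 207 bases, and reads of near-identical copies cannot be assigned to one of them, so these 4 sites are uncertain. Reads may also be shared among copies at LOC257642 and AABR07063424.1, as described below for SYD-H against Control. Eif3a, which encodes a subunit of the translation initiation factor eIF3, had 4 sites, and at the strongest of them (chr1:282145547-282146238) the score was 3100 in all Control and Model lists and 1969, 1927 and 2123 in the SYD-H lists.

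At the other end were sites that only just reached a peak in 1 of the lists. The 5 members with the lowest lowest score lay in Epb41l2, Kank1 and Clint1 (20.07 each), Gpank1 (20.12) and Reep3 (20.13), next to the lowest score of 20 in the lists. The first of them, in Epb41l2, a protein of the membrane skeleton, had a median score of 278 over the lists, so that a low value in a single list decided its place. In Kank1, a regulator of actin at focal adhesions, the median was 172. Just outside were 535 sites of 8 lists. The 5 with the highest lowest score lay in Myh9 (1774.02) and Myh9l1 (867.03), both without a peak in Model replicate 1, in LOC100909983 (354.69, without SYD-H replicate 1), in Nr2f2, an orphan nuclear receptor (338.36, without Control replicate 3), and in the tropomyosin gene Tpm4 (205.02, without Control replicate 1). Tpm4 had 2 other sites among the members. The absent list was a SYD-H list at 318 of the 535 sites, a Model list at 137 and a Control list at 80. The SYD-H lists were the shortest, with 2508 to 2786 peaks.

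The members ranked high in each list. Ranked by score within its list, the median member stood above 85.1% to 86.9% of the peaks in Control replicates 1 and 3 and in Model replicates 1 and 3, above 83.3% in Control replicate 2 and 80.7% in Model replicate 2, and above 75.2%, 76.9% and 78.2% in the SYD-H lists. The members filled 16.5% to 25.3% of the sites of the Control lists, 20.5% to 31.8% of the Model lists and 32.95% to 36.6% of the shorter SYD-H lists, and the highest median rank they could reach fell with that share, so no order between lists is read from these ranks. Of the 100 highest peaks of a list, 79 to 90 lay in member sites. In all 9 lists at once, 493 members (53.8%) were in the upper part of the list, above its median peak, and 114 were among the highest 10% of its peaks. A single member (1) stayed below the median of every list. The lowest of its 9 scores was a SYD-H value at 690 members (75.2%), a Model value at 139 and a Control value at 88. That lowest score was under 50 at 466 members (50.8%) and over 100 at 215.

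Scores and fold enrichments of the members moved in opposite directions in the SYD-H lists. The median member score was 299, 164 and 217 in the Control lists, 209, 130 and 191 in the Model lists and 79.7, 89.1 and 96.2 in the SYD-H lists. The Control medians averaged 227 ± 68.1, the Model medians 177 ± 41.6 and the SYD-H medians 88.3 ± 8.29 (mean ± SD, n = 3 lists each), and every SYD-H list was below every other list. The median fold enrichment of IP over input at the same sites was 12.5, 13.0 and 16.2 in Control, 17.8, 12.7 and 17.3 in Model and 38.9, 26.7 and 40.5 in SYD-H, averaging 13.9 ± 2.02, 15.9 ± 2.80 and 35.4 ± 7.57 (mean ± SD, n = 3 lists each), and every SYD-H list was above every other list. Control and Model overlapped in both measures.

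The other peaks of the lists showed the same shift. Their median fold was 6.85 to 9.56 in the Control, 8.86 to 10.46 in the Model and 19.7 to 28.03 in the SYD-H lists, and their median score 39.95 to 51.3, 37.5 to 43.9 and 31.97 to 34.0. Members exceeded the other peaks of their list by a ratio of median folds of 1.56 to 1.82 in Control, 1.43 to 1.70 in Model and 1.36 to 1.48 in SYD-H. Whether the making of the SYD-H libraries differed was not tested. A shift of a whole list cannot be told apart from a change at each of its sites with these lists.

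**Figure D2:**
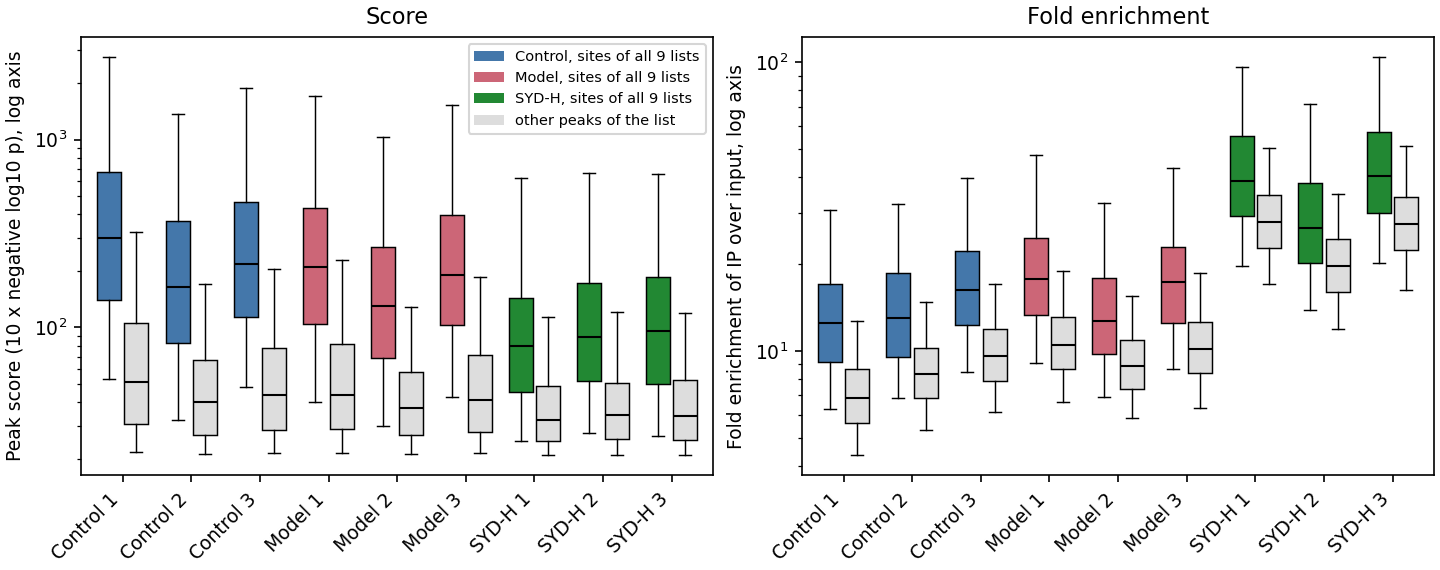
Score (left, log axis) and fold enrichment of IP over input (right, log axis) of the 917 sites of all 9 lists (coloured boxes) and of the other peaks of the same list (grey boxes). Boxes give the quartiles with the median and whiskers the 5th and 95th percentiles. The SYD-H lists have the lowest median member scores (79.7 to 96.2) and the highest median member folds (26.7 to 40.5), and the grey boxes shift with them.

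Taken site by site, deposited folds were higher in all 3 SYD-H than in all 3 Model lists at 728 of 917 members, against 79.7% of the 1004 sites called in those 6 lists. Against Control this held at 819 members, with 90.5% of the 1075 sites called in the 6 lists. Scores were lower in all 3 SYD-H lists than in all Model lists at 375 members (39.2% of sites called in those lists) and than in all Control lists at 505 members (51.9%). At 250 members both held against Model, a higher fold and a lower score without overlap. The share of all 1004 sites at which both held is not given here, so this count is not read as a trait of the members. Between Model and Control, folds were higher without overlap at 54 members (7.16% of the 1424 sites called in the 6 lists) and scores lower without overlap at 78 (8.64%). For the other counts, the members' shares were close to those of all sites called in the same lists, most of which are members themselves.

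Because of this shift, groups were compared on relative folds, that is, the fold of a site divided by the median fold of the 917 members in the same list. A relative fold of 1 is the level of the median member. Without overlap, Model was above Control at 29 members and below it at 29 (3.30% and 4.00% of the 1424 sites called in the 6 lists). SYD-H was above Model at 44 members and below it at 51 (4.78% and 5.38% of 1004 sites). Against Control these were 60 and 53 (6.98% and 5.40% of 1075 sites). A lack of overlap at a single site is therefore given below as a description. The log2 folds of the sites were correlated between all pairs of lists. Over the 917 sites, Pearson's r of the log2 folds was 0.749 to 0.821 for pairs of lists of the same group, 0.764 to 0.835 for Control and Model, 0.720 to 0.795 for Model and SYD-H and 0.716 to 0.792 for Control and SYD-H. By rank, Spearman's rho of the scores was 0.596 to 0.808 over all pairs of lists. Sites share transcripts and lists share sites, so these correlations are a description.

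The first comparison asks whether PE changed the enrichment of the common sites. By limma on the log2 relative folds of all 1424 sites called in the 6 lists, 0 sites (0%) differed between Model and Control at an adjusted p under 0.05, and the lowest adjusted p was 0.668. At an unadjusted p under 0.05 there were 54 sites (3.79%), 27 of them members, 14 higher and 13 lower in Model. Member differences were small, with an SD of 0.26 on the log2 scale, and 915 of 917 were within 1 in either direction. For 818 members (89.2%) the 95% interval of the difference lay between -1 and 1, so that a change of 2-fold or more was outside it, while for the others the data do not settle this. A site lost from a list under PE is not among those tested.

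Among the members, the site with the smallest p was in Tnnt2, cardiac troponin T of the thin filament (chr13:52662996-52663090). Its relative fold was 2.16, 1.74 and 1.35 in the Control lists, 0.638, 0.809 and 1.13 in the Model lists and 0.585, 1.34 and 1.51 in the SYD-H lists. Control and Model did not overlap, and SYD-H spanned both. The log2 difference of Model from Control was -1.04 with a 95% interval of -1.63 to -0.45 (limma, unadjusted p = 0.00190, adjusted p = 0.668). A second Tnnt2 member (chr13:52677823-52677933) had 1.02, 0.841 and 0.899 in Control, 1.13, 0.899 and 0.924 in Model and 0.897, 1.07 and 0.835 in SYD-H, so that the first site stood apart from its neighbour in the same gene. Ddhd1, a phospholipase gene, came next (chr15:20031336-20032191). There the relative fold was 0.550, 0.815 and 0.435 in Control, 1.22, 0.973 and 1.33 in Model and 0.514, 0.806 and 0.795 in SYD-H, with Model above both other groups (log2 difference from Control 1.00 with a 95% interval of 0.42 to 1.58, limma, adjusted p = 0.668). The following members by p, between which sites outside the members also ranked, were LOC100361259, annotated as similar to a ribosomal protein of the large subunit (log2 difference 0.87), Sart3, a factor of the recycling of spliceosomal snRNPs (0.73), and Fbxl17, an F-box protein gene (0.76). In Sart3 the 3 Control lists lay together at 1.98, 2.17 and 2.04, the Model lists at 3.15, 4.15 and 3.09 and the SYD-H lists in between at 2.27, 2.75 and 2.33.

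The second comparison asks what SYD changed in cells given PE. By limma on the 1004 sites called in the 6 lists, 0 (0%) differed in relative fold between SYD-H and Model at an adjusted p under 0.05 (lowest adjusted p = 0.692). At an unadjusted p under 0.05 there were 56 sites (5.58%), 53 of them members, with 27 higher and 26 lower in SYD-H. The differences had an SD of 0.33 on the log2 scale and 911 of 917 members stayed within 1. For 673 members (73.4%) the 95% interval lay between -1 and 1. On the deposited folds, without division by the list median, 902 of the 1004 sites were called, all 902 of them higher in SYD-H, and 821 were members (limma, adjusted p under 0.05). The median member differed by 1.15 on the log2 scale in these deposited folds.

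Among the members, the smallest p belonged to Got2, the mitochondrial aspartate aminotransferase (chr19:9587653-9587843). Its relative fold was 0.849, 0.922 and 0.754 in the Model lists and 2.08, 1.31 and 1.80 in the SYD-H lists, which did not overlap, and 0.494, 1.22 and 1.15 in the Control lists. The log2 difference was 1.02 with a 95% interval of 0.47 to 1.57 (limma, adjusted p = 0.692). Obsl1, an obscurin-like cytoskeletal adaptor, had 0.371, 0.518 and 0.510 in Model, 0.701, 0.918 and 1.52 in SYD-H and 0.464, 0.592 and 0.424 in Control. Only the SYD-H lists of Obsl1 stood apart, with a log2 difference from Model of 1.11 (95% interval 0.44 to 1.77). Lower relative folds in SYD-H had Hmgn5b, a nucleosome-binding protein gene (log2 difference -1.05), Dock1, an activator of the GTPase Rac (-0.91), and Myh4, a myosin heavy chain of fast skeletal muscle (-0.78), all with an adjusted p of 0.692 by limma. The Myh4 site (chr10:53734120-53734323) had 1.93, 2.06 and 2.46 in Model and 1.30, 1.18 and 1.27 in SYD-H, which lay close together below the Model lists, and 3.91, 1.56 and 2.77 in Control. Reads of sarcomeric myosin genes can be shared between paralogs, so its name is uncertain.

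For SYD-H against Control, 1075 sites were called in the 6 lists and 0 (0%) differed in relative fold by limma (lowest adjusted p = 0.522). This comparison shares its lists with the other comparisons. At an unadjusted p under 0.05 there were 86 sites (8%), of which 75 were members, 40 higher and 35 lower. Of the members, AABR07015066.1 had the smallest p, being an unnamed locus (chr14:46588406-46588816) with relative folds of 0.742, 1.49 and 0.965 in Control and 3.42, 1.53 and 4.65 in SYD-H (log2 difference 1.503, 95% interval 0.68 to 2.33, limma, adjusted p = 0.522). Without SYD-H replicate 2, whose value lay next to the Control lists, this site alone passed (limma, adjusted p = 0.00735). It has the same length, 411 bases, as the site in AABR07063424.1 on chromosome 6, and it lies between the 2 member sites of LOC257642, so its reads may be shared among copies. Ddrgk1, an adaptor of protein ufmylation at the endoplasmic reticulum, had 1.73, 2.81 and 3.38 in Control, 3.21, 1.82 and 1.8975 in Model and 1.04, 1.54 and 0.694 in SYD-H, which lay below both other groups (log2 difference from Control -1.29, 95% interval -2.01 to -0.58). Kctd17, a potassium channel tetramerization domain protein gene (1.45), Abr, a regulator of small GTPases (1.04), and Cdk11b, a kinase of transcription and splicing (0.96), had higher relative folds in SYD-H, each with an adjusted p of 0.522 by limma.

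**Figure D3:**
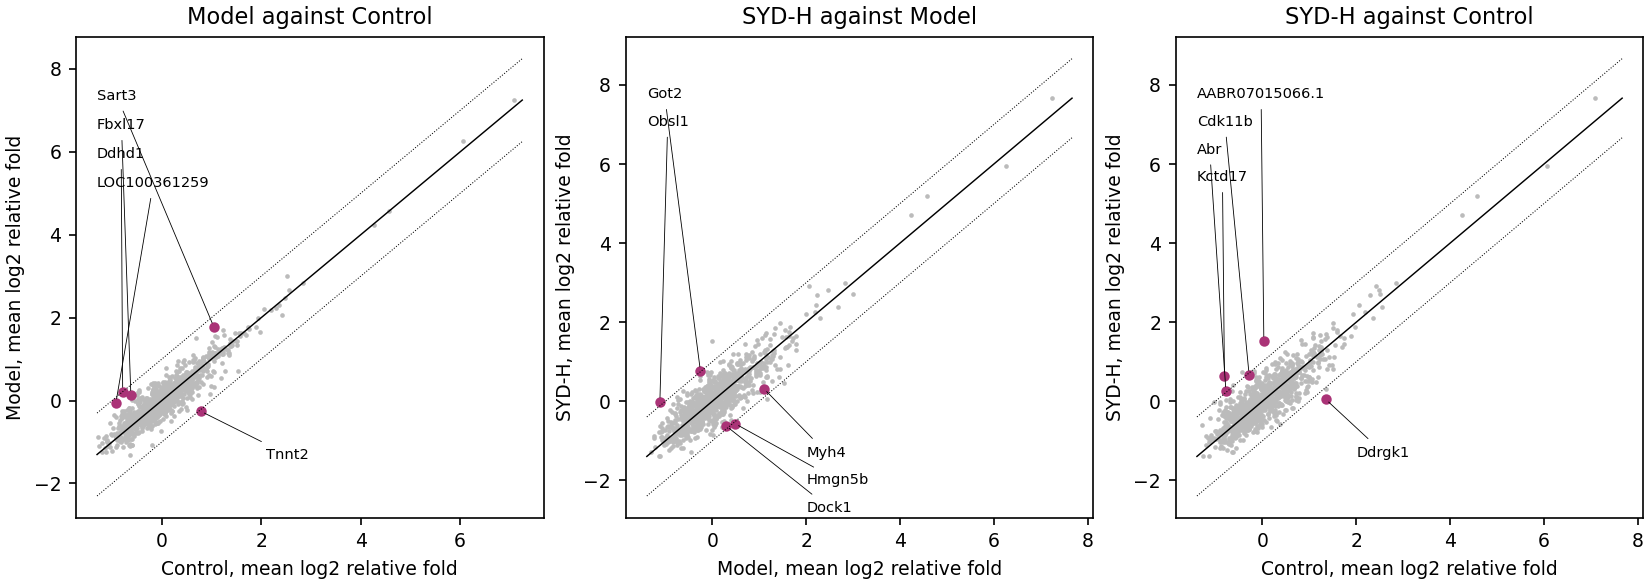
Mean log2 relative fold of each of the 917 sites (1 point per site, n = 3 lists per group) in the groups compared. The solid line marks equality, dotted lines a difference of 1 on the log2 scale, and purple points the 5 of them with the smallest p of each comparison. Between 908 and 915 of 917 sites lie within the dotted lines.

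**Figure D4:**
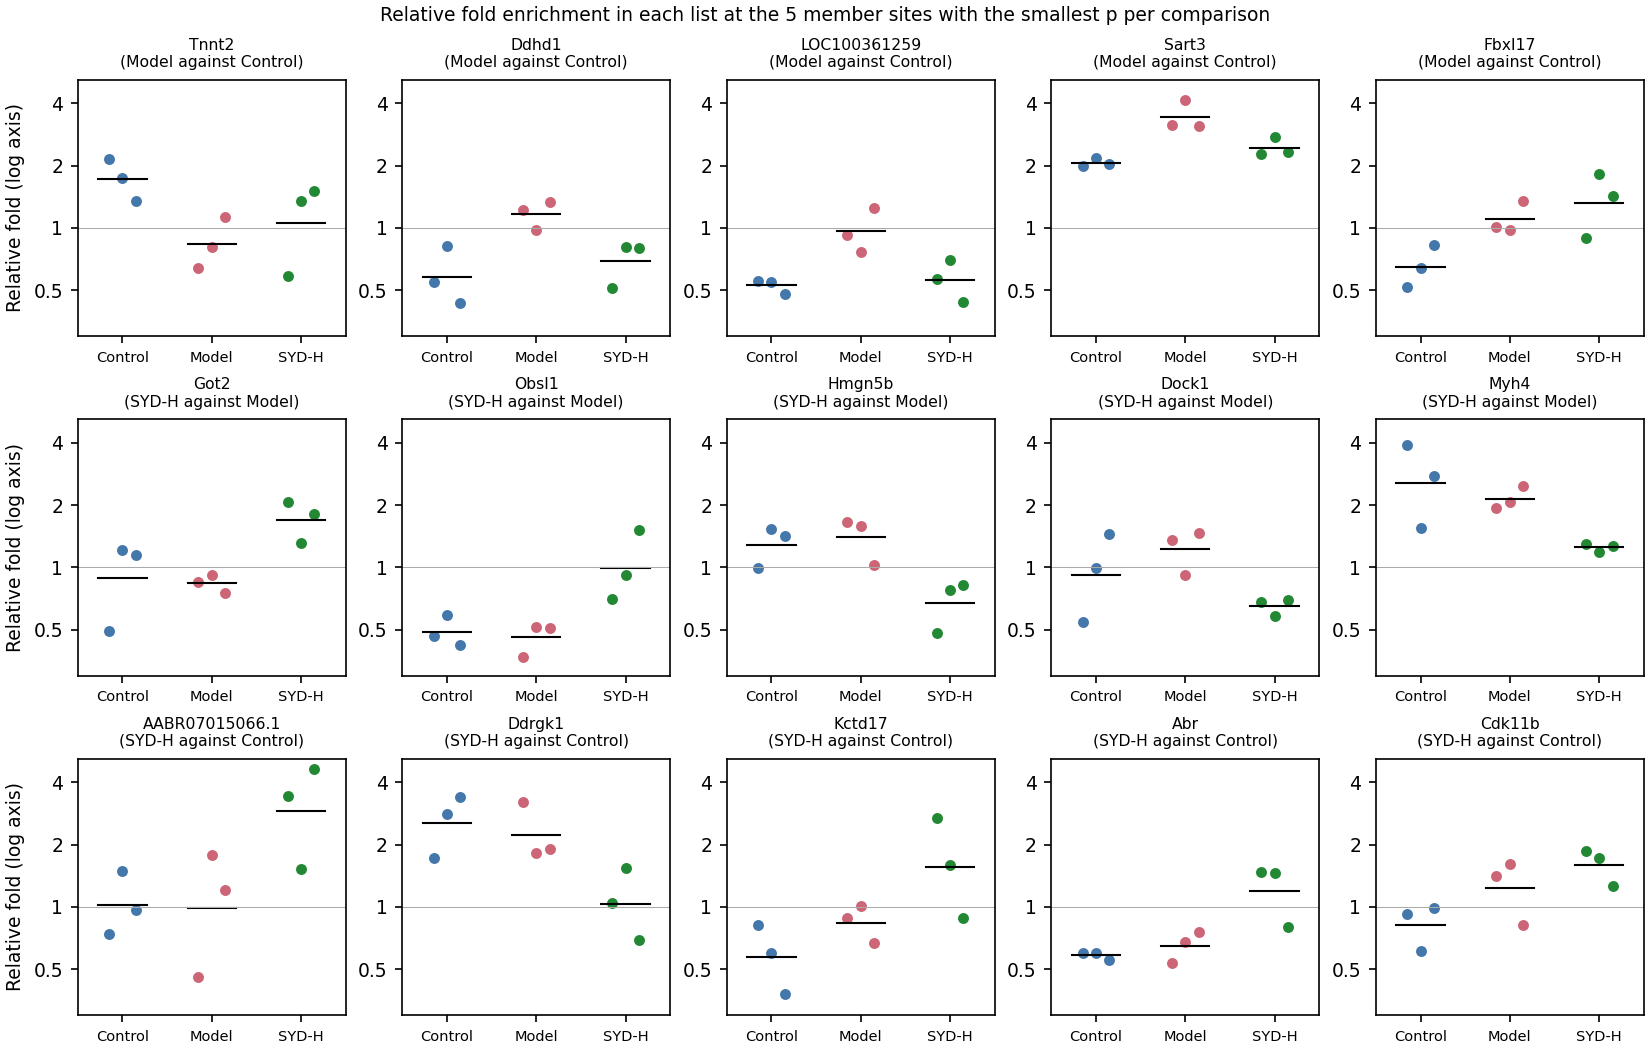
Relative fold (log axis) in each list at the 5 member sites with the smallest p of each comparison, with points for the 3 lists of a group and a bar for their geometric mean. In Tnnt2 the Control lists (1.35 to 2.16) lie above the Model lists (0.638 to 1.13), and in Got2 the SYD-H lists (1.31 to 2.08) lie above the Model lists (0.754 to 0.922).

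Most genes had a single member site, and the genes with the most were of several kinds. Of the 742 genes, 614 had 1 member site, 99 had 2, 19 had 3, and 10 had 4 or more. Col5a1, a chain of type V collagen, led with 7 member sites of its 28 sites. Smarca2 and Smarca4, the alternative ATPases of the SWI/SNF chromatin remodeler, had 6 of 12 and 5 of 10, and the nonmuscle myosin gene Myh10 had 5 of 16. Cdk11b, Eif3a, Golim4, a Golgi protein gene, Map7d1, a microtubule-binding protein gene, and Jdp2, a repressor of AP-1, had 4 each. Jdp2 had no site outside the members. Genes with more sites more often had a member. The share was 7.70% of the 2806 genes with 1 site and 19.2% of those with 2. It was 28.5% of those with 3 or 4 and 46.8% of the 263 with 5 or more. A gene with more sites has more chances to hold a member, and 10.2% of all sites were members. The rise with the number of sites is therefore not read as a trait of these genes.

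Sites of the same gene could differ from each other by more than the lists did. In Col5a1, the sites were 45 to 108 bases long and 4 of them measured 108 bases. The relative fold at chr3:6551633-6551740 was 1.70, 2.68 and 2.74 in Control, 2.08, 2.18 and 2.29 in Model and 2.37, 2.93 and 2.12 in SYD-H. At chr3:6524864-6524917 it was 0.654, 0.700 and 0.520 in Control, 0.970, 0.656 and 0.600 in Model and 0.669, 0.785 and 0.788 in SYD-H, below the first site in every list. Zc3h13, a zinc finger protein of the m6A writer complex, had 3 of its 4 sites in all lists. Its strongest site (chr15:57388867-57389467) had relative folds of 2.94, 2.03 and 2.42 in Control, 2.86, 2.45 and 1.93 in Model and 2.71, 1.89 and 1.84 in SYD-H, and its weakest (chr15:57396963-57397115) had 0.914, 0.611 and 0.738, then 0.822, 0.645 and 0.560, then 0.663, 0.612 and 0.632. In each gene the order of these sites was the same in all 9 lists and the groups overlapped.

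Member sites mostly had the same borders in every list, and their width was close to that of other sites found in many lists. Their median width was 316 bases, with quartiles of 182 and 651 and a range of 20 to 7383, beside medians of 303 for sites of 8 lists, 306 for 7 lists, 274 for 6 lists, 315 for 5 lists and 201 for sites of a single list. There were 56 members under 100 bases and 144 over 1000. The longest were in Plec (7383 bases), Ankrd11 (6506), a chromatin regulator, the transcription factor genes Rai1 (5521) and Zfhx3 (5466), and Akap12 (4807), a scaffold of protein kinase A. In 778 members (84.8%) the peak had the same start and the same end in all 9 lists, and so did 75.9% of the 5100 sites of 2 to 8 lists. The median length of member peaks was accordingly 310 to 315 bases in every list. Whether the borders are those of exons was not tested, because no annotation of rn6 was used.

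The most enriched members were few. The median fold over the lists was 17.7 for the median member, over 50 at 29 members and over 100 at 7. The top values were 2354 and 390 in LOC257642, 1451 in AABR07063424.1, 300.4 in AABR07000398.1 and 149 in AABR07054370.1. These are mostly loci without a gene name, and apart from them the highest were Basp1, a membrane-bound signaling protein gene (122), and Cebpb, a transcription factor gene (118). At LOC257642 and AABR07063424.1 reads may be shared among copies, so their folds are uncertain. The Cebpb site had relative folds of 4.45, 4.48 and 10.2 in Control, 7.39, 6.30 and 5.59 in Model and 3.03, 12.9 and 3.59 in SYD-H, a spread over the lists that covers the 3 groups. In Plec, by contrast, all 9 values lay between 1.57 and 1.99.

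Within genes, members were more often near the 5' end than near the 3' end of the set of sites. The files hold no strand, so the direction of a gene was taken from RefSeq (GRCr8), which gave a strand for 564 of the 742 gene names. In 728 genes with at least 3 sites, 14.1% of the sites nearest the 5' end, 12.0% of those in between and 8.52% of those nearest the 3' end were members, that is, 103 of 728, 209 of 1742 and 62 of 728. Sites of a single list ran the other way, with 26.9%, 28.1% and 34.6%. Members nearest the 3' end had a median width of 462.5 bases, those at the 5' end 291 and those in between 206, and over all sites of these genes the order was the same, with 240, 215 and 163. These are counts over sites of shared transcripts, given without a test. The place of a site in its transcript (coding sequence or untranslated region) was not analysed here.

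By the deposited annotation, the share of genes with a member differed between pathways, and these shares are given as a description with no test. Among pathways with at least 40 genes with a site, the share of genes with a member was highest for tight junction (18 of 47, 38.3%), adrenergic signaling in cardiomyocytes (17 of 46, 37.0%), RNA transport (19 of 58, 32.8%) and spliceosome (17 of 56, 30.4%), beside 15.9% of all 1627 genes with a pathway. It was lowest for protein processing in endoplasmic reticulum (6 of 68, 8.82%) and metabolic pathways (20 of 225, 8.89%). Signaling pathways lay on both sides of the share of all genes, with 27.8% for cAMP and 27.7% for FoxO signaling and 12.9% for MAPK and 10.1% for Ras signaling. By molecular function, 123 of 490 genes of poly(A) RNA binding (25.1%), 29 of 98 genes of actin binding (29.6%) and 51 of 205 genes of chromatin binding (24.9%) had a member, beside 16.3% of all genes with a function, and 2 of 44 structural constituents of the ribosome did (4.55%). By location, the mitochondrial inner membrane had 4 of 56 (7.14%), beside 15.8% overall. Genes differ in length, abundance and number of sites, and their part in these shares was not tested.

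Adrenergic signaling in cardiomyocytes, the annotated pathway with the receptors that PE acts on, was the second by share, whereas calcium signaling (6 of 41, 14.6%) and the separate list of hypertrophy and adrenergic signaling genes (4 of 26, 15.4%) were near the shares of all genes. The 17 genes of the annotated adrenergic pathway with a member, contractile genes among them, included Gnaq and Gnas, G protein subunits behind α1- and β-adrenergic receptors, Prkaca, the catalytic subunit of protein kinase A, the calcium pump gene Atp2a2, Mapk14 (p38), Tnnt2 and the tropomyosin genes Tpm2, Tpm3 and Tpm4. The Gnaq site (chr1:233382708-233382913) had relative folds of 2.13, 2.64 and 2.34 in Control, 2.54, 3.96 and 3.43 in Model and 3.57, 2.97 and 2.29 in SYD-H, high in all lists and with overlap between all groups. Atp2a2 had 1.63, 0.948 and 0.952 in Control, 1.48, 1.22 and 1.21 in Model and 1.07, 2.09 and 0.874 in SYD-H. Prkaca had 1.64, 2.05 and 2.81 in Control, 2.66, 2.98 and 3.28 in Model and 2.82, 3.68 and 2.81 in SYD-H. The Control lists of Prkaca reached up to 2.81, and the Model lists started at 2.66.

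Among lists chosen for this tissue and treatment that had at least 5 genes with a site, with 15.3% of all 4846 such genes as the background, the share with a member was highest for muscle structure (9 of 15), followed by 54.2% for RNA processing and nuclear speckles (13 of 24), 50.0% for the chosen Wnt list (9 of 18, whereas the annotated Wnt signaling pathway had 11 of 55, or 20%, beside 15.9% of all genes with a pathway) and 36.4% for chromatin regulators (24 of 66). The order was another by sites, with 37.5% of the 8 sites of m6A writers, 30.6% of the Wnt sites, 28.8% of the RNA processing sites and 27.3% of the muscle structure sites being members, beside 10.2% of all sites. The writer sites among them were 3 sites of a single gene, Zc3h13, and by genes 1 of 5 writers with a site had a member (20%). Muscle structure here meant the contractile and actin-linked genes Cald1, Lmod1, Myh10, Myh4, Myh9, Myl9, Tnnt2, Tpm2 and Tpm3. Of these, Myh9 and Myh10 are nonmuscle myosin genes, and the sites of Myh9 and Myh4 are uncertain through shared reads. The 15 genes of this list with a site held 77 sites, and a gene with more sites has more chances to hold a member. The RNA list held Hnrnpu, Hnrnpul2, Hnrnpl and Hnrnpm, which coat nascent RNA, the speckle proteins Srrm2 and Pnn, and Upf1, a helicase of nonsense-mediated decay. Wnt genes included the receptors Fzd7, Lrp6 and Lgr4, the adaptor Dvl3 and Bcl9l, a cofactor of β-catenin. Chromatin genes covered SWI/SNF (Smarca2, Smarca4, Smarcc1, Smarcc2, Arid1a and Arid1b), the acetyltransferases Crebbp and Ep300 and the DNA methyltransferases Dnmt1 and Dnmt3a.

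Beside hypertrophy and adrenergic signaling, shares near the background were found for zinc finger transcription factors (7 of 47, 14.9%) and mTOR signaling (4 of 27, 14.8%). Autophagy had 2 of 22 (9.09%), the TFEB family and lysosome 0 of 9 and apoptosis and NF-kB 0 of 14. Neither Mtor nor Tfeb, nor Mettl3, was among the members. A gene outside the members can still have peaks in some of the lists. Of 46 chosen symbols of ribosomal proteins 1 had any site and of 39 of oxidative phosphorylation 2 did, and 0 of these were members. The ribosomal list left out genes named by LOC numbers, of which LOC100359616 and LOC100361259 are the 2 members annotated as structural constituents of the ribosome.

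**Figure D5:**
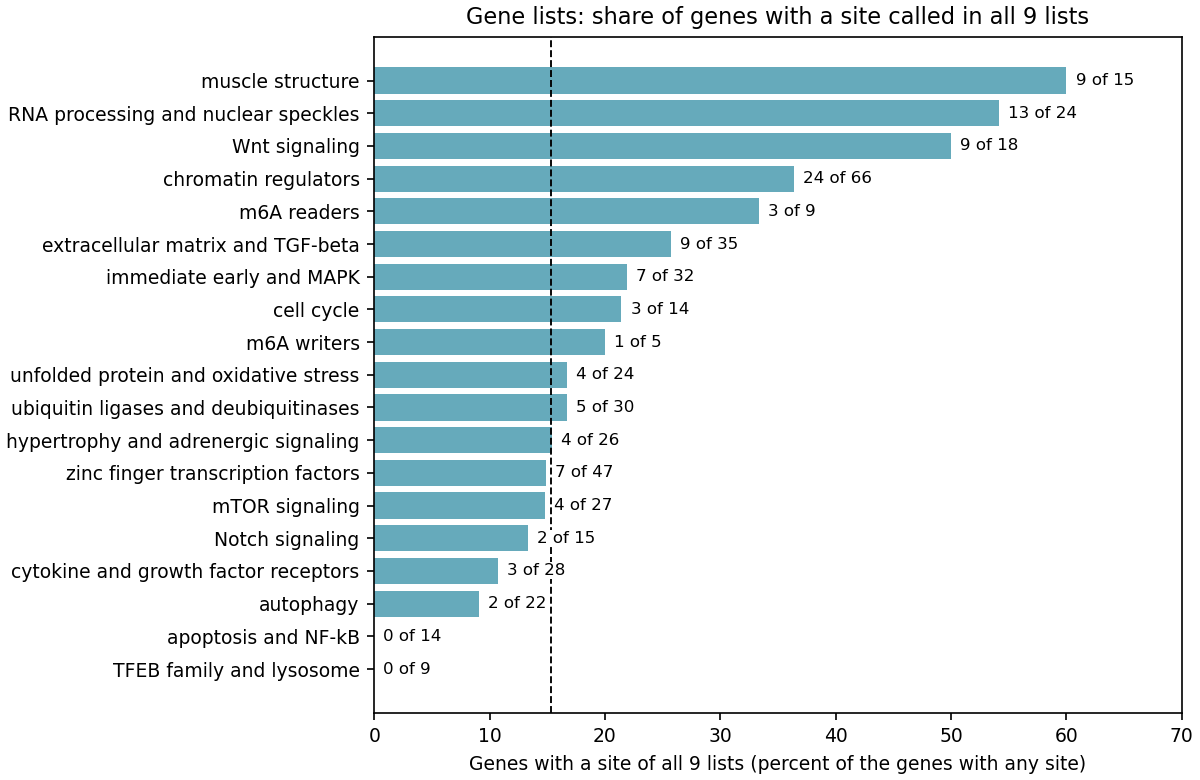
Share of genes with a site of all 9 lists among the genes of each list with any site (x axis, percent), for lists with at least 5 such genes. Numbers give the genes with a member of those with a site, and the dashed line marks 15.3%, the share over all 4846 genes. Muscle structure (9 of 15) and RNA processing (13 of 24) stand highest, and the lists of TFEB and lysosome and of apoptosis are at 0.

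Other members of the m6A machinery and members of autophagy and mTOR signaling lay on both sides of the median member. Fmr1, an RNA-binding protein gene of the reader list, had relative folds of 2.04, 1.83 and 2.39 in Control, 1.72, 1.54 and 1.61 in Model and 1.83, 1.37 and 1.27 in SYD-H, above the median member in every list. The Control lists of Fmr1 lay above the Model lists, and the lowest Control and the highest SYD-H value were the same to the digits given. The autophagy receptor gene Calcoco1 had 0.540 to 0.772 in Control, 0.592 to 0.850 in Model and 0.558 to 1.19 in SYD-H, and 8 of its 9 values were below the median member. Alkbh5, the eraser, had 1 site (chr10:46906115-46907086) with relative folds of 1.22, 1.38 and 1.25 in Control, 0.984, 1.23 and 1.26 in Model and 0.871, 0.854 and 0.754 in SYD-H. The SYD-H lists were below the other groups, with a log2 difference of -0.48 from Model and -0.64 from Control that did not pass the threshold over all sites. Ythdc1, the nuclear m6A reader, had a short site of 28 bases (chr14:23001984-23002011) with 0.988, 1.31 and 1.21 in Control, 0.924, 1.61 and 1.05 in Model and 0.704, 1.05 and 0.818 in SYD-H, with overlap. Map1lc3b, the LC3 protein of autophagosomes, had 0.954, 1.17 and 0.542 in Control, 1.08, 1.13 and 0.899 in Model and 0.728, 0.861 and 0.645 in SYD-H. Of the mTOR list, Akt1s1, an inhibitory subunit of mTORC1, had 1.29, 1.52 and 1.34 in Control, 1.31, 1.38 and 1.42 in Model and 0.789, 2.51 and 1.16 in SYD-H, close together in the first groups and spread in the last. Irs2, an adaptor of the insulin receptor, carried 1 of the longest sites (4064 bases) with relative folds between 0.664 and 1.21.

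Over the 16 lists with at least 3 member sites, the median log2 difference ranged from -0.21 (cell cycle) to 0.26 (unfolded protein and oxidative stress) for Model against Control and from -0.37 (m6A readers) to 0.20 (cell cycle) for SYD-H against Model. It ranged from -0.38 (m6A readers) to 0.16 (extracellular matrix and TGF-beta) for SYD-H against Control. The medians over all sites tested were 0.01, 0.02 and 0.03. The 6 reader sites were 4 of Eif3a and 1 each of Fmr1 and Ythdc1, and all 6 had negative differences, from -0.66 to -0.14 against Model and from -0.55 to -0.18 against Control. The 3 writer sites, all of Zc3h13, were negative as well, from -0.17 to -0.07 and from -0.23 to -0.11, as was the Alkbh5 site. Among all 917 members, 449 were negative against Model and 441 against Control, a near-even split that follows from centring each list on the median of these members. In deposited folds the group mean was higher in SYD-H at all 917 members in both comparisons. Sites of the same transcript are not independent of each other, and no test was made on the gene lists as sets. At chr1:282148016-282148200, Eif3a had relative folds of 1.23, 0.981 and 0.946 in Model and 0.646, 0.613 and 0.726 in SYD-H, without overlap, and 1.32, 0.836 and 0.812 in Control. The 48 sites of chromatin regulators had medians of -0.01 for Model against Control and 0.00 for SYD-H against Model, and the 21 sites of muscle structure had -0.08 and -0.09, and -0.23 for SYD-H against Control, where 3 of them had an unadjusted p under 0.05. By limma 0 sites of these lists were called in any comparison, and 5 of 48 chromatin sites had an unadjusted p under 0.05 for SYD-H against Control, beside 8% of all sites tested.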

How the data were processed

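The authors sequenced 18 MeRIP samples of H9c2 cells, an IP and an input for each of 3 replicates of 3 groups. Per the labels, reads were trimmed with cutadapt 1.9.3 and aligned with HISAT2 2.0.4 to rn6. MACS was run by the authors on every replicate, peaks outside mRNA were dropped, and 9 lists with 32961 peaks were deposited. The deposited score is 10 times the negative log10 p of MACS, the deposited fold enrichment is a ratio of IP over input set by the authors' caller, and the deposited peak length is the end minus the start. The FDR column was 100 for every peak and was not used. Differential tests of the authors were made on reads and were not repeated. The lists hold no read numbers, and counting error could not be computed.

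Peaks sharing 1 base or more were merged, and the peak with the highest score stood for a site in a list. The log2 folds were centred on each list's median over the 917 members and tested with limma 3.58.1 (lmFit, eBayes, two-sided) in R 4.3.3 on all sites with a peak in the 6 lists compared, with Benjamini-Hochberg adjustment over all of them and a threshold of 0.05. The script was tested on simulated data. Sites were named by fixed rules: the 10 highest and 5 lowest by lowest score, the 5 best of 8 lists, the 5 longest, the 5 with the highest fold, genes with at least 3 members, the 5 members with the smallest p per comparison and members of the gene lists. Genes chosen within these as examples, and Atp2a2, Prkaca, Mapk14, Gnas, Tpm4, Basp1 and Cebpb, were chosen after their values were seen. A few genes meeting these rules are not reported here. Members, lists and pathways were chosen with earlier results of these data known. The main fit did not treat lists of the same replicate number as pairs. Python 3.11.15 with numpy 2.4.6, pandas 2.3.3 and matplotlib 3.10.9 was used. Peak sequences were not used here, since no genome of rn6 was at hand.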

Additional observations from a re-analysis of the deposited data

How the results depend on the processing

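Keeping only peaks that scored 50 or more left 451 sites in every list, and leaving out each list in turn gave 935 to 1035 sites in the 8 others. It was 714 with lists of equal length (2508 peaks each), 867 for genes in place of sites, 917 with an overlap of 50% and 778 with the same start and end in every list, a setting chosen after seeing the data. No site was called between Model and Control under any of 13 alternatives (limma, 0 calls, 51 to 106 sites at an unadjusted p under 0.05). For SYD-H, 902 sites were called against Model and 1038 against Control without centring, all higher, since centring removes a shift of whole lists by construction. The replicate block (lists of the same number paired) gave 0 calls in all 3 comparisons with a lowest adjusted p of 0.121. With the replicate block on the score, chosen after seeing the data, 4 sites were called for SYD-H against Model, and the cause was not tested. Leaving out each list in turn gave 0 calls for SYD-H against Model and 0 to 1 against Control. The remaining alternatives (centring on all peaks, the score, sites with 2 or more values per group, the mean of several peaks) made 0 calls. Deviations from the group means correlated at 0.26, 0.10 and 0.03 between same-numbered Control and Model lists. The highest correlation of these Control lists with a Model list of another number was -0.09, 0.06 and 0.11. Whether same-numbered lists belong together was not tested, and the main fit did not pair them. Sites lost from a list could not be tested, and the fit used 3 lists a group of unknown depth.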

Other observations

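Outside the comparisons of the report, 7 of 32 genes of the immediate early and MAPK list had a member (21.9%, beside 15.3% of all genes with a site), and Fos, Fosb, Fosl1 and Fosl2 were not among them. The AP-1 genes Jun, Junb and Jund, which encode transcription factors that PE and other growth stimuli act on, each had a single long member site of 2994, 1783 and 1679 bases. Their relative folds had the same order in every list, with Jund at 1.24 to 2.27, Jun at 0.580 to 1.02 and Junb at 0.370 to 0.683 over the 9 lists. Of the Hippo pathway, which controls organ size, 14 of 61 genes with a site had a member (23.0%, beside 15.9% of all genes with a pathway, and behind 9 other pathways), among them the kinase Lats2 and its partner Sav1, the coactivators Yap1 and Wwtr1 (TAZ) and their DNA-binding partner Tead1. The Yap1 site had relative folds of 0.605, 0.898 and 0.578 in Control, 0.735, 0.917 and 0.716 in Model and 0.918, 0.905 and 0.966 in SYD-H, so that SYD-H overlapped Model and lay just above Control. These genes were chosen after their values were seen, and no test was made on the groups.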
